A study of Bos taurus with 12 samples.

Results

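The genes described here belong to families of enzymes that add or remove methyl and acetyl groups on histones, and some act on other substrates. They are the rows of the count table whose symbols begin with KMT, SETD, SETDB, PRMT, KDM, KAT, HDAC or SIRT and a number, with EHMT1, EHMT2, EP300 and CREBBP. There were 74 such genes among the 32637 in the table. By enzyme class these were 21 lysine methyltransferases, 8 arginine methyltransferases, 17 lysine demethylases, 10 acetyltransferases, 11 zinc-dependent deacetylases and 7 sirtuins. Histone methyltransferases and acetyltransferases with other symbols, such as EZH2, SUV39H1 and HAT1, are in the lists of other genes below. The libraries were made from in vitro produced Bos taurus expanded blastocysts, 6 female and 5 male. A library holds RNA from parts of a pair of same-sex embryos, the rest of each embryo having gone into a PCR test of its sex. No embryo was treated or genetically modified, and semen from more than 1 bull was used. The stage is the only one with RNA-seq counts, so the comparison is male against female within expanded blastocysts. Embryos were collected on more than 1 day of culture. The sample labels do not give the day, so whether the sexes were matched in it is not known.

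Methyltransferases and acetyltransferases deposit marks on lysine or arginine residues of histone tails, and demethylases and deacetylases take them off. Marks such as H3K4 methylation and histone acetylation accompany transcribed genes, whereas H3K9 and H3K27 methylation accompany silenced ones. In mammalian blastocysts these enzymes act while the embryo replaces inherited marks, separates inner cell mass from trophectoderm and, in females, begins to silence an X chromosome. Several of the genes lie on the X chromosome, and KDM6A and KDM5C are known in other mammals for escaping that silencing and for having relatives on the Y chromosome.

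The libraries held 6664112 to 16162985 assigned reads in females and 9942952 to 21392764 in males. The summed level of Y-linked genes was at most 55.1 CPM in any female library and at least 583 CPM in any male library, as the sex labels require. Levels are given in CPM, the gene's reads scaled by TMM to a common number of reads in the tested genes. Inner cell mass markers (6 of the 6 in the table) and trophectoderm markers (10 of 10) exceeded 3 counts in all 11 libraries, as did 5 of 7 hypoblast markers, while 1 of 7 cumulus cell markers did. The cumulus markers summed to 7.20 to 32.7 CPM in females and 5.38 to 29.5 CPM in males. Male replicate 5 stood apart: it was the deepest library and had the fewest genes detected (14937). It also held the lowest or highest value of 51.7% of all tested genes. Many of the values that move by over 1.5 times or turn sign without it are therefore given both ways below. In these bulk samples fewer cells of a type and less RNA per cell cannot be told apart.

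The enzyme genes took 0.182% to 0.307% of the reads, and 70 to 74 of them had at least 1 read in a given library. Enough reads for the test were found for 69 of 74. Of these 69, 1 was called female-biased (1.45%), KDM6A, and none was called male-biased. A gene was called when edgeR's quasi-likelihood test gave an adjusted p under 0.1 and the fold change exceeded 1.5. Among all 12802 tested genes, 1.5% were called female-biased and 0.414% male-biased, so the share of the enzyme genes was near the background in both directions. At an unadjusted p under 0.05, 3 enzyme genes were lower in males (KDM6A, KDM5C and HDAC6; background 6.95%) and 5 were higher (KAT8, PRMT5, PRMT7, SIRT5 and HDAC2; background 6.26%). DESeq2 also called 1 female-biased enzyme gene, KDM6A, and no male-biased one, where it called 3.43% and 1.34% of all tested genes. Without male replicate 5, edgeR called 2 female-biased enzyme genes, KDM6A and KDM5C, and no male-biased one (2.10% and 0.710% of all genes). With no filter beyond 1 read in any library it called those same 2 and no male-biased one (2.24% and 0.876%), and none in either direction without the library number as a block (1.80% and 0.750%). In no enzyme gene did all libraries of one sex lie above all libraries of the other, a pattern seen in 1.88% of tested genes with females above and in 1.43% with males above.

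**Figure D1:**
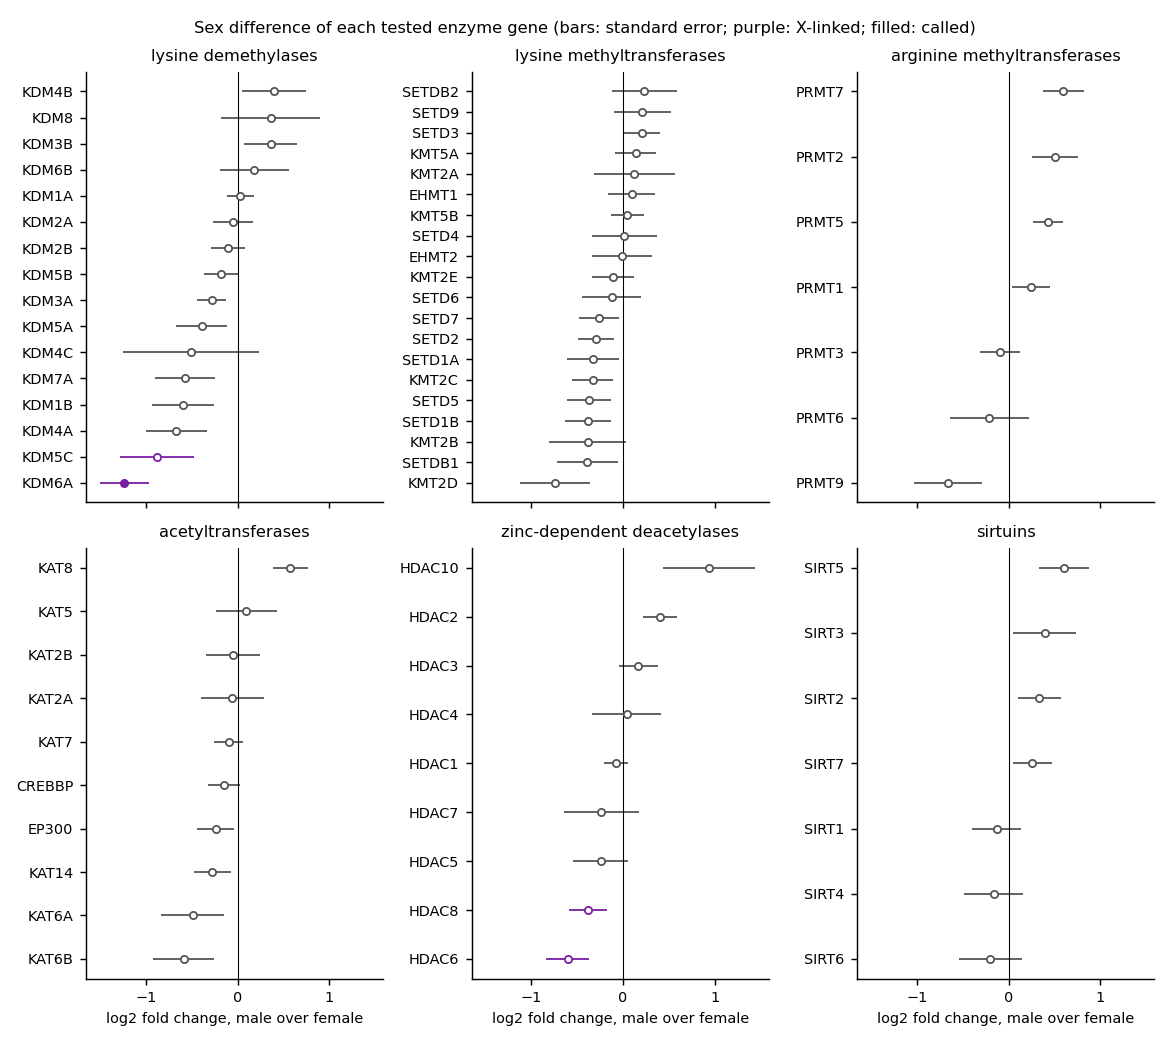
Fitted log2 fold change of each of the 69 tested genes, male over female, in 1 panel per enzyme class. Bars are standard errors, purple marks X-linked genes and the filled point is the called gene. KDM6A stands at -1.24, and the 4 X-linked genes all lie left of 0.

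Among the lysine demethylases, KDM6A was lower in males and the other genes did not pass the test. KDM6A, also called UTX, removes methyl groups from H3K27 and belongs to the KMT2C and KMT2D complexes. It lies on chromosome X, 98634477 to 98814039 (ARS-UCD2.0). The 5 male libraries held 32.8, 35.4, 50.3, 23.4 and 8.53 CPM, and the 6 female libraries ran from 48.0 through a median of 68.5 to 96.9 CPM. Male replicate 3 was the only male library to reach into the female range, and replicate 5 was the lowest of all. The mean was 70.1 ± 16.4 CPM in females (SD, n = 6) and 30.1 ± 15.4 CPM in males (SD, n = 5), a log2 fold change of -1.24 (SE 0.27, edgeR adjusted p = 0.0579).

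The direction of the KDM6A difference was the same among libraries whose names share a first number (1, 2 or 3), with log2 differences of -0.96, -0.77 and -1.94. The last of these includes male replicate 5. The other male library of number 3, replicate 4, held 23.4 CPM against 64.6 and 48.0 CPM in female replicates 5 and 6. Without male replicate 5 the log2 fold change was -0.998 (edgeR adjusted p = 0.0139). The call itself was held in 5 of the 11 edgeR fits that left out 1 library. Leaving out any of female replicates 2, 5 and 6 and male replicates 1, 2 and 3 ended it, with edgeR adjusted p up to 0.145 and log2 fold changes between -1.40 and -0.998 over all 11 fits, and also without the library number as a block (edgeR adjusted p = 0.106). The Y-linked relatives UTY and KDM5D are not among the gene symbols counted. How reads shared between such copies were counted is not given in the sources used here. The male values of KDM6A and KDM5C are uncertain to that extent. KDM6B, the autosomal H3K27 demethylase on chromosome 19, had 1.65 ± 0.286 CPM in females and 1.86 ± 0.271 CPM in males (log2 fold change 0.18, SE 0.37, edgeR adjusted p = 0.883).

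KDM5C, an H3K4 demethylase at chromosome X, 90644122 to 90675135, had 39.8, 15.2, 26.8, 12.7 and 67.4 CPM in the male libraries and 36.4 to 77.5 CPM, median 58.7, in the female ones. Male replicates 2, 3 and 4 lay below every female library, whereas replicate 5 was higher than all but 2 females. Over all libraries the log2 fold change was -0.88 (SE 0.40), which did not pass the test (edgeR adjusted p = 0.377). Without male replicate 5 it was -1.37 and passed (edgeR adjusted p = 0.0778). It also passed, with all 11 libraries, when no filter beyond 1 read in any library was used (edgeR adjusted p = 0.0109), so its call turned on both choices. Its autosomal paralogs KDM5A, at -0.39 (SE 0.28), and KDM5B, at -0.18 (SE 0.19), did not pass the test (edgeR adjusted p = 0.601 and 0.74).

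The demethylase with the highest mean CPM of its class was KDM1A (LSD1), which removes H3K4 mono- and dimethylation with FAD as cofactor. It had 115 ± 10.5 CPM in females and 117 ± 22.6 CPM in males, a log2 fold change of 0.03 (SE 0.15, edgeR adjusted p = 0.96), or -0.02 without male replicate 5. Of the 16 tested demethylases, 11 had a fold change below 0, with a median of -0.23. Beyond KDM6A and KDM5C the lowest were KDM4A at -0.67 (SE 0.33), KDM1B at -0.60 (SE 0.34) and KDM7A at -0.57 (SE 0.33), none of which passed the test (edgeR adjusted p from 0.414 to 0.498). The highest was KDM4B at 0.40 (SE 0.35, edgeR adjusted p = 0.677). KDM1B stood at -0.38 and KDM4B at 0.19 without male replicate 5. KDM4A, KDM1B, KDM7A, KDM4B and the paralogs KDM5A, KDM5B and KDM6B were chosen for mention after their values were seen.

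**Figure D2:**
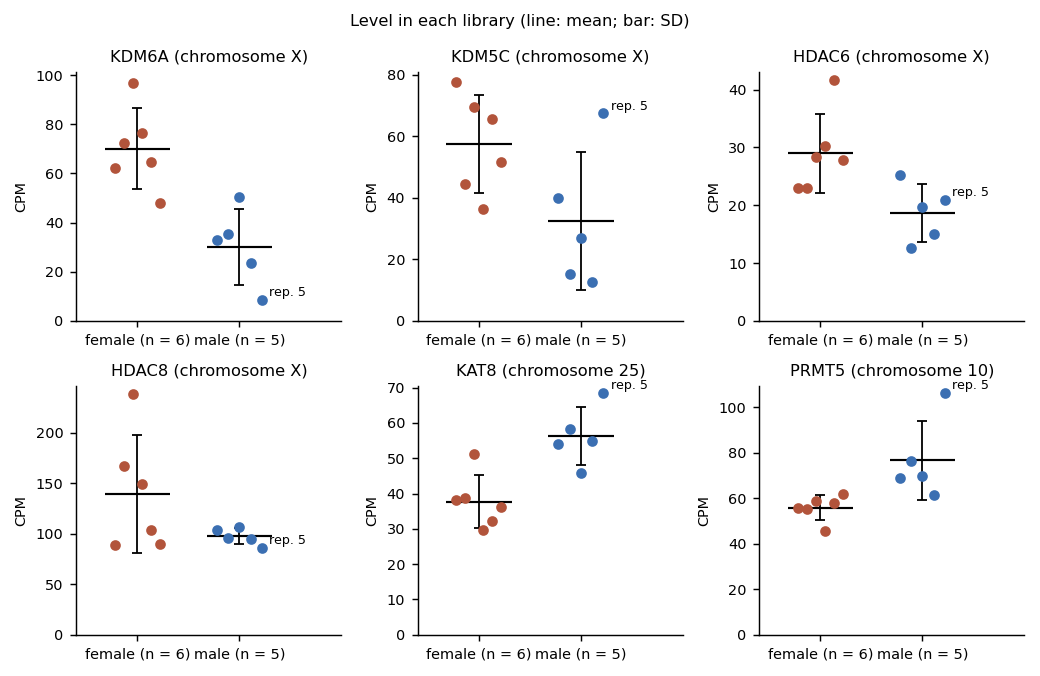
CPM in each of the 6 female and 5 male libraries for the 4 X-linked enzyme genes and for KAT8 and PRMT5. Lines are means, bars are SD and male replicate 5 is marked. For KDM6A, 1 male library reaches the female range, and for KDM5C replicate 5 lies far above the other males.

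No lysine methyltransferase was called, and 12 of the 20 tested lay below 0 (median -0.12). The H3K4 methyltransferases KMT2A to KMT2D, SETD1A, SETD1B and SETD7 had 6 of 7 values below 0 and a median of -0.33. This median was -0.16 without male replicate 5. KMT2D, which places H3K4 monomethylation at enhancers, had the largest change of its class, at -0.74 (SE 0.38, edgeR adjusted p = 0.441). Its male libraries held 6.45, 3.28, 6.63, 1.59 and 1.89 CPM, against 4.34 to 7.78 CPM, median 6.14, in females, so males 2, 4 and 5 lay below every female. Its relative KMT2C, which had the highest mean CPM of the class, had 67.8 ± 13.8 CPM in females and 53.4 ± 20.8 CPM in males (-0.33, SE 0.22, edgeR adjusted p = 0.57), and stood at -0.16 without male replicate 5, its lowest library.

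The other methyltransferases with the highest mean CPM differed less. SETD3, which methylates actin, had 48.4 ± 12.6 CPM in females and 57.4 ± 14.7 CPM in males, with a log2 fold change of 0.21 (SE 0.19, edgeR adjusted p = 0.699), or 0.094 without male replicate 5. KMT5B, which di- and trimethylates H4K20, had 41.4 ± 10.7 and 40.4 ± 5.83 CPM, and its fold change of 0.05 (SE 0.18, edgeR adjusted p = 0.944) took the opposite sign without male replicate 5 (-0.03) or without the block (-0.04). The 4 H3K9 methyltransferases EHMT1, EHMT2, SETDB1 and SETDB2 had a median of 0.04 and ranged from -0.39 to 0.23, and without male replicate 5 the median was -0.15. SETD2, which trimethylates H3K36, stood at -0.29 (SE 0.20, edgeR adjusted p = 0.569), or -0.18 without that library.

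Of the arginine methyltransferases, 4 of 7 tested genes lay above 0, near the 6470 of 12802 over all tested genes. Their median was 0.25 and none was called. PRMT5, which makes symmetric dimethylarginine, lies on chromosome 10, 21915790 to 21923671. Its male libraries held 69.1, 76.6, 69.8, 61.6 and 106 CPM and its female libraries 45.8 to 62.0 CPM, median 56.9. Only male replicate 4, by a narrow margin, was below the highest female. The log2 fold change was 0.43 (SE 0.17, unadjusted p = 0.0231, edgeR adjusted p = 0.282), and 0.30 without male replicate 5.

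PRMT7, which makes monomethylarginine, lies on chromosome 18, 35680939 to 35721707. It had 67.6, 56.7, 63.9, 66.5 and 106 CPM in males and 30.6 to 68.2 CPM, median 43.1, in females. The male libraries other than replicate 5 lay below the highest female, replicate 1, at 68.2 CPM, but above every other female. The log2 fold change was 0.60 (SE 0.22, edgeR adjusted p = 0.267). Without male replicate 5, the highest library, it was 0.46 (edgeR adjusted p = 0.300). Without female replicate 1 it was 0.83 and passed (edgeR adjusted p = 0.0841). PRMT1, the main source of asymmetric dimethylarginine, had 42.5 ± 9.93 CPM in females and 51.0 ± 13.3 CPM in males, at 0.25 (SE 0.21, edgeR adjusted p = 0.668). PRMT9 had the largest change of the class in size, at -0.66 (SE 0.37, edgeR adjusted p = 0.487), with 9.32 ± 4.49 CPM in females and 6.02 ± 2.18 CPM in males.

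Of the acetyltransferases, 8 of 10 lay below 0 (median -0.12, or -0.20 without male replicate 5) and none was called. KAT8 (MOF), which acetylates H4K16 in the MSL and NSL complexes, was the one with an unadjusted p under 0.05 and it was higher in males. It lies on chromosome 25, 27219039 to 27228735. Male libraries held 54.0, 58.4, 46.0, 54.9 and 68.6 CPM, and female libraries 29.6 to 51.2 CPM, median 37.1. Female replicate 3, at 51.2 CPM, was the only female above the lowest male. The means were 37.6 ± 7.51 and 56.4 ± 8.20 CPM, a log2 fold change of 0.58 (SE 0.19, unadjusted p = 0.00959, edgeR adjusted p = 0.205).

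KAT8 passed the test without female replicate 3, at 0.70 (edgeR adjusted p = 0.0829). DESeq2 gave an adjusted p of 0.0757, with a fold change under 1.5. KAT6B, of the same MYST family, was the lowest of the class at -0.59 (SE 0.33, edgeR adjusted p = 0.489) and stood at -0.33 without male replicate 5, where it was 10.3 CPM against 30.3 to 66.4 CPM elsewhere. KAT7, which acetylates H3K14 and H4, varied little, with 64.2 ± 5.83 and 59.96 ± 8.77 CPM. EP300, a coactivator that acetylates H3K27, had 98.9 ± 18.3 CPM in females and 83.8 ± 33.5 CPM in males (-0.24, SE 0.20, edgeR adjusted p = 0.67), or -0.15 without male replicate 5, and its relative CREBBP stood at -0.15 (SE 0.17, edgeR adjusted p = 0.771).

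Among the zinc-dependent deacetylases, the X-linked HDAC6 and HDAC8 lay below 0 and HDAC2 above, and none was called. HDAC6, which deacetylates tubulin, lies at chromosome X, 86915161 to 86934092, and had 25.2, 12.6, 19.8, 15.0 and 20.9 CPM in males against 23.0 to 41.6 CPM, median 28.1, in females. Male replicate 1 was the only male library within the female range. The log2 fold change was -0.60 (SE 0.23, unadjusted p = 0.0234, edgeR adjusted p = 0.284), and -0.61 without male replicate 5.

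HDAC8, a class I deacetylase that acts on cohesin, lies at chromosome X, 78105526 to 78344199. Its male libraries were close together, from 86.0 to 107 CPM, while the females ran from 88.6 through a median of 127 to 239 CPM. The 3 lowest females lay within the male range, and females 2, 3 and 4 above every male. Its log2 fold change of -0.38 (SE 0.21) did not pass the test (edgeR adjusted p = 0.474).

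HDAC1 and HDAC2 are the paired catalytic subunits of the NuRD, Sin3 and CoREST complexes. HDAC1 gave 53.8% to 69.1% of the CPM of its class in each library and varied little, with an SD within sex of 0.14 on the log2 scale, the lowest of the tested enzyme genes. Without male replicate 5 it was 0.15, and that of PRMT5 was 0.14. It had 468 ± 45.7 CPM in females and 447 ± 45.7 CPM in males (-0.08, SE 0.13, edgeR adjusted p = 0.851). HDAC2 had 78.4, 79.4, 75.2, 94.1 and 111 CPM in males and 52.4 to 83.9 CPM, median 65.0, in females, and 2 males exceeded every female. Its log2 fold change was 0.41 (SE 0.19, unadjusted p = 0.0497, edgeR adjusted p = 0.377). HDAC10, a polyamine deacetylase, had the highest fitted value of the class at 0.94 (SE 0.51, edgeR adjusted p = 0.467), from low levels of 1.598 ± 0.771 and 3.01 ± 1.79 CPM, and stood at 0.43 without male replicate 5.

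The sirtuins, deacylases that consume NAD, had 4 of 7 values above 0 and a median of 0.26, or 0.11 without male replicate 5, and none was called. SIRT5, a mitochondrial desuccinylase on chromosome 23, 43027524 to 43050450, had 22.3, 18.5, 18.5, 18.4 and 46.6 CPM in males and 12.4 to 19.95 CPM, median 15.4, in females. Male replicate 5 was more than 20 CPM above every other library. The log2 fold change was 0.61 (SE 0.27, unadjusted p = 0.0438, edgeR adjusted p = 0.361), and 0.30 without that library.

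SIRT1, a nuclear deacetylase of histones and transcription factors, gave 29.5% to 77.9% of the CPM of its class. Males held 203, 151, 214, 155 and 52.1 CPM, and females 108 to 205 CPM, median 189. The low share came from male replicate 5, and the fold change of -0.13 (SE 0.27, edgeR adjusted p = 0.888) was 0.09 without it. SIRT2, the mainly cytosolic tubulin deacetylase, had 24.6 ± 6.42 CPM in females and 33.8 ± 11.8 CPM in males (0.34, SE 0.23, edgeR adjusted p = 0.583), or 0.22 without that library.

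Compared as classes, the lysine demethylases took a smaller part of the enzymes' reads in males, and the shares of the other 5 classes overlapped between the sexes. CPM summed over a class counts reads, and a longer transcript gives more of them. The demethylases took 18.0% to 20.3% of the CPM of the 74 genes in females (mean 19.6% ± 0.844, SD, n = 6) and 13.6% to 17.9% in males (16.6% ± 1.705, SD, n = 5). No male library reached the lowest female. When the X-linked genes were left out of every class, the demethylase share was 15.0% to 17.7% in females and 12.8% to 16.4% in males, and the ranges overlapped. The arginine methyltransferases took 7.55% to 11.8% in females and 10.1% to 15.6% in males. The 15.6% was male replicate 5, and the other males took 10.1% to 12.4%.

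The summed demethylase level was 485 ± 49.9 CPM in females and 391 ± 71.2 CPM in males, or 358 ± 31.8 and 329 ± 55.0 CPM without KDM5C and KDM6A. The arginine methyltransferases summed to 221 ± 32.8 CPM in females and 277 ± 54.4 CPM in males. Male replicate 5 alone reached 372 CPM, and without it the male mean was 253 ± 14.0 CPM. Females ranged from 183 to 260 CPM, so the other males, at 233 to 265 CPM, lay mostly within the female range.

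The summed levels of the other 4 classes differed by less than their spread. The acetyltransferases had 349 ± 56.4 and 325 ± 53.4 CPM in females and males, the lysine methyltransferases 408 ± 38.7 and 373 ± 46.5 CPM, the deacetylases 773 ± 72.7 and 729 ± 61.9 CPM and the sirtuins 237 ± 28.6 and 243 ± 44.0 CPM. Without male replicate 5 the male mean of the sirtuins was 259 ± 27.4 CPM. By fold change per gene, the class medians ran from -0.23 in the demethylases to 0.26 in the sirtuins. Over all the tested enzyme genes 42 of 69 (60.9%) lay below 0, with a median of -0.10, beside 49.5% and a median of 0.01 over all tested genes. Without male replicate 5 the medians were -0.15 for the enzyme genes and -0.02 for all tested genes. No test was made of the differences between classes.

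**Figure D3:**
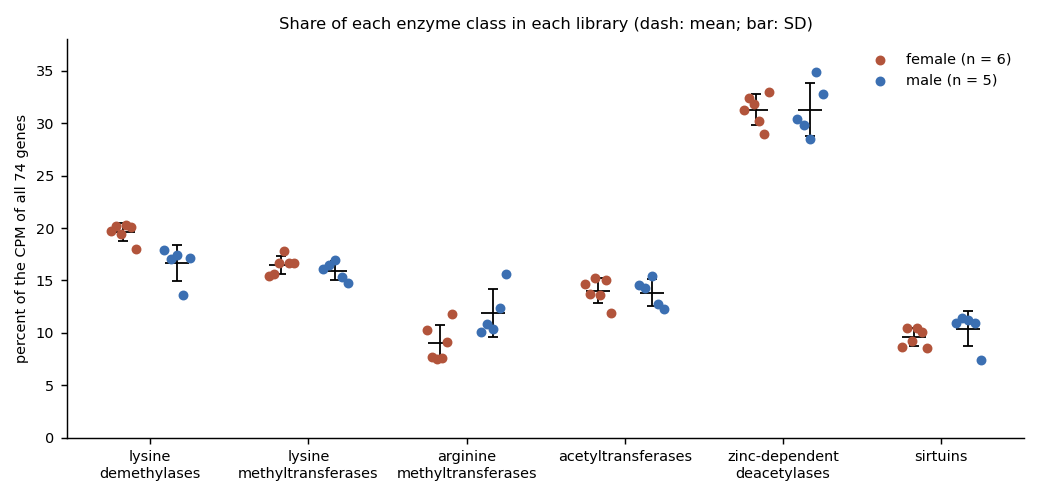
Percent of the summed CPM of the 74 enzyme genes taken by each class in each library, with the mean (dash) and SD (bar) of the 6 female and 5 male libraries. The lysine demethylase points of the sexes do not overlap, at 18.0% to 20.3% in females and 13.6% to 17.9% in males.

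All 4 X-linked enzyme genes lay below 0, with a median of -0.74, and the 65 tested autosomal enzyme genes had a median of -0.09. Among 476 tested X-linked genes the median was -0.85, 94.3% lay below 0 and 27.7% were called female-biased, and 1 of the 4 enzyme genes was called. The X-linked enzyme genes were thus within the range of other X-linked genes. Of the autosomal enzyme genes none was called, where 0.361% of autosomal genes were female-biased and 0.345% male-biased.

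In 6 lists of other methyltransferases, other JmjC proteins, other acetyltransferases, COMPASS subunits and acetyltransferase and deacetylase complex subunits, 104 of 110 genes were tested. Of these, edgeR called 3, all female-biased and X-linked. They were 3 of the 9 tested X-linked genes of the lists, beside 27.7% of all X-linked genes. The 95 tested genes of the lists that are not X-linked had a median of 0.02, or 8.0e-05 without male replicate 5, and none was called. At an unadjusted p under 0.05, 7 of them were lower and 2 higher in males. Among all 12172 tested autosomal genes, 562 were lower and 788 higher at that threshold. Of the same autosomal genes 0.361% and 0.345% were called female-biased and male-biased. DESeq2 also called the autosomal NAA60 (adjusted p = 0.0983) and ING4 (adjusted p = 0.0386) male-biased, and edgeR called ING4 without the library number as a block (adjusted p = 0.0934).

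TAF1, the large TFIID subunit counted among the acetyltransferases, had 12.9, 16.5, 14.1, 15.1 and 20.2 CPM in males and 22.7 to 48.4 CPM, median 38.3, in females, so that no male reached the lowest female. Its log2 fold change was -1.15 (SE 0.23, edgeR adjusted p = 0.0406). MSL3, which works with KAT8 in the MSL complex, had 39.6, 52.7, 37.0, 47.8 and 26.4 CPM in males and 64.8 to 78.8 CPM, median 74.1, in females, again without overlap. It fell by 0.88 on the log2 scale in males (SE 0.18, edgeR adjusted p = 0.0444). MORF4L2, a subunit of the NuA4 complex of KAT5, had 273, 364, 294, 351 and 269 CPM in males and 447 to 512 CPM, median 494, in females, at -0.65 (SE 0.13, edgeR adjusted p = 0.0453). The calls of TAF1, MSL3 and MORF4L2 were held in 7, 6 and 6 of the 11 fits without 1 library, and each kept its direction in all 11.

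By list, beside 1.5% female-biased and 0.414% male-biased among all genes, other methyltransferases had 0 of 15 called, other JmjC proteins 0 of 9, other acetyltransferases 1 of 12, COMPASS subunits 0 of 15, acetyltransferase complex subunits 2 of 30 and deacetylase complex subunits 0 of 23. The X-linked genes that did not pass were PHF8 at -0.88, JADE3 at -0.64, HCFC1 at -0.59, RBBP7 at -0.47, SUV39H1 at -0.40 and TBL1X at 0.09 (edgeR adjusted p from 0.205 to 0.958). Among the 9 tested, TBL1X was the only one above 0.

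**Figure D4:**
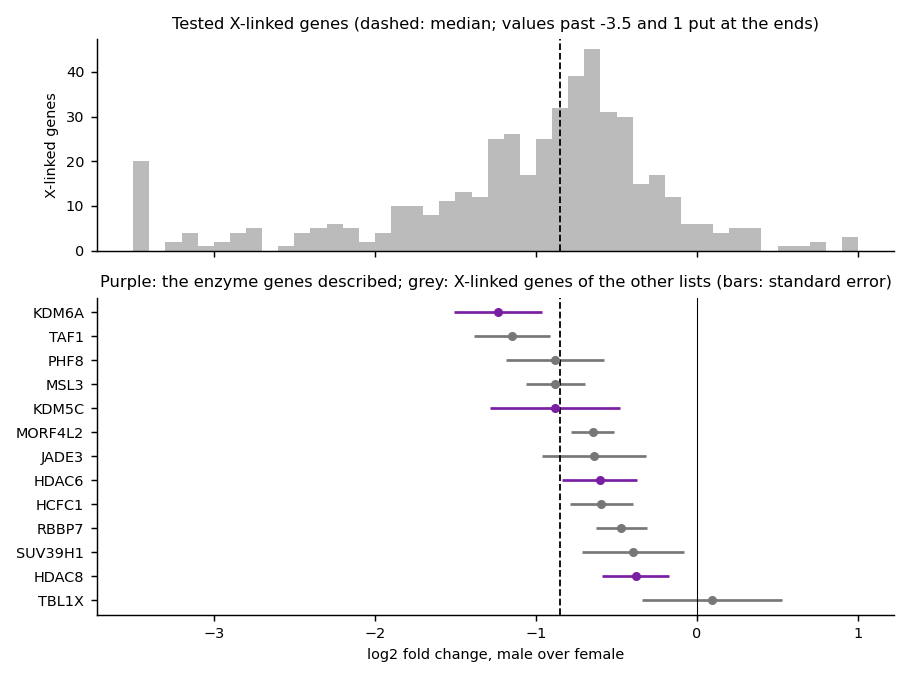
Upper panel, number of tested X-linked genes by log2 fold change, male over female, with the median of -0.85 dashed. Lower panel, fold change and standard error of the 4 X-linked enzyme genes (purple) and the 9 X-linked genes of the other lists (grey). All but TBL1X lie below 0.

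Within each sex the enzyme genes differed in how much they varied, and male replicate 5 set much of that. It held the lowest of the 11 values for 20 of the 69 tested enzyme genes and the highest for 24, 63.8% of them, beside 51.7% of all tested genes. Female replicate 3 came next, with the highest value for 22 enzyme genes and the lowest for 2 (34.8%, beside 18.1% of all genes). KDM4C had no reads in male replicate 5, against 6.97 to 16.9 CPM in the other 10 libraries, and KMT2A had 1.31 CPM there against 8.18 to 23.8 CPM. KMT2B, at 0.775 CPM, SETDB1, at 1.55 CPM, and SIRT1, at 52.1 CPM, were lowest there too.

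Opposite to these, PRMT6 had 33.3 CPM in male replicate 5 and 3.35 to 15.6 CPM elsewhere, KAT5 37.4 CPM and SETD4 12.1 CPM, each the highest of its gene. The genes of this paragraph and of the one before were chosen after their values were seen. Without that library the within-sex SD on the log2 scale fell from 1.43 to 0.46 for KDM4C and from 1.06 to 0.47 for KMT2A, and the median over the tested enzyme genes from 0.43 to 0.36. The same median over all tested genes was 0.46 with male replicate 5 and 0.39 without it. Some trophectoderm markers stood apart there too. Their median was 1.02 above the other males on the log2 scale, and 4 of 10 were highest there. They summed to 36145 CPM there against 7879 to 23154 CPM in the other 10 libraries, and KRT8 made up much of that sum. KRT8 had 20142 CPM there against 3586 to 6534 CPM in the other males, and CDX2 25.3 against 2.64 to 4.22 CPM. GATA2, GATA3, TFAP2A, TFAP2C, PTGS2 and LGALS3 lay within the range of the other libraries. The 6 inner cell mass markers had a median of -0.37 and the 5 tested hypoblast markers one of -0.29 by the same measure. Of the inner cell mass markers, 2 were lowest and 2 highest in male replicate 5. POU5F1 was highest, at 737 CPM against 287 to 519 CPM elsewhere. The inner cell mass markers summed to 888 CPM, within the 560 to 1076 CPM of the other libraries. The part of these cell types in the values of this library was not tested.

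**Figure D5:**
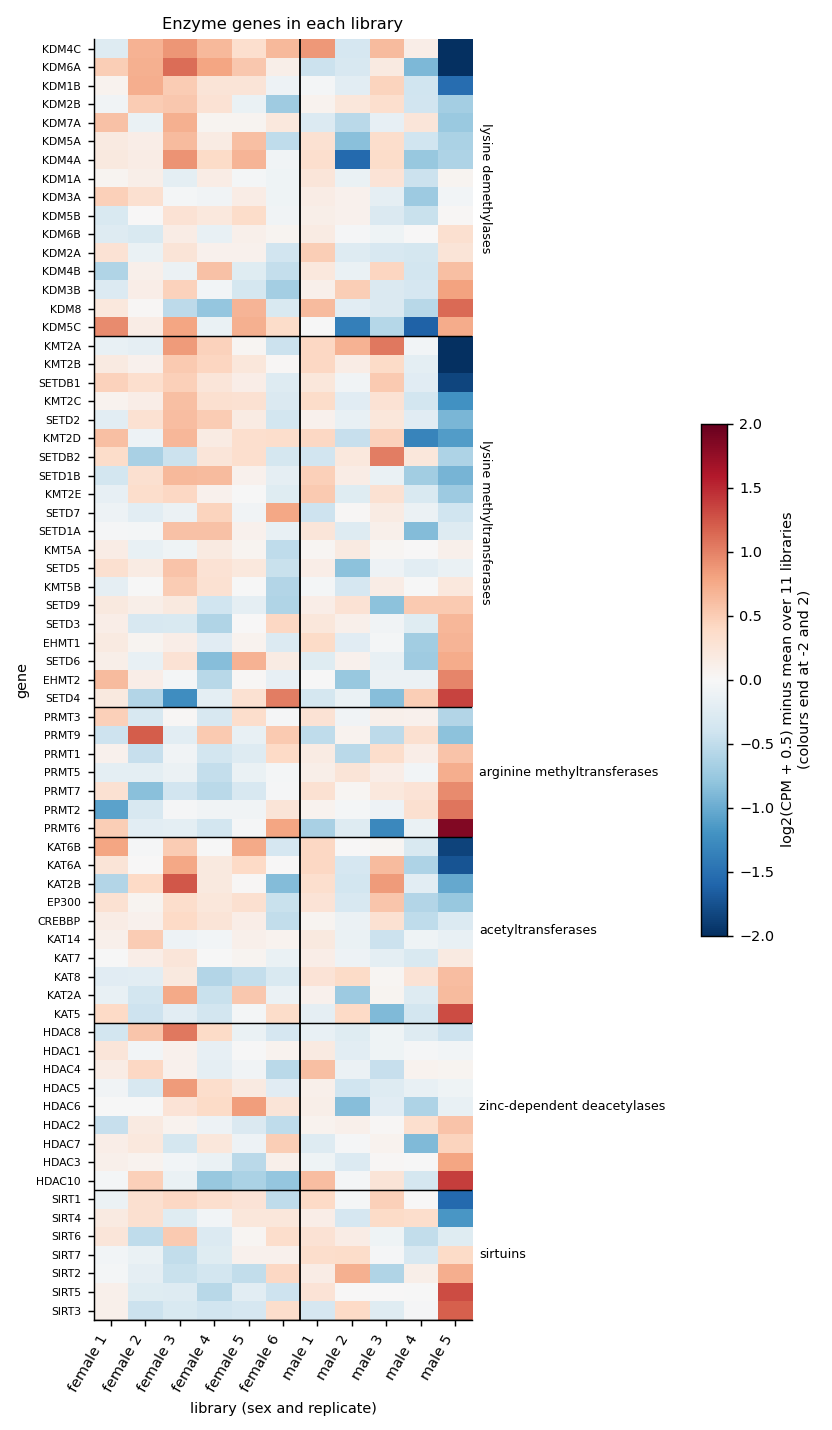
Difference of log2(CPM + 0.5) from the mean over the 11 libraries for each tested enzyme gene, by class, with colours ending at -2 and 2. Genes are ordered within class by male replicate 5 against the other males. That library carries the strongest colours, with KDM4C, KMT2A and KMT2B among the lowest and PRMT6 among the highest.

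The 5 genes with too few reads for the test were PRMT8, KDM4D, KMT5C, HDAC9 and HDAC11. KDM4D, a demethylase of H3K9, had 5, 5 and 11 reads in female replicates 2, 4 and 6 and none in the other females or in any male, a difference that did not pass a two-sided exact permutation test (p = 0.242). HDAC9 had at most 7 reads in a female and 2 in a male (exact permutation p = 0.0693), KMT5C at most 14 and 11 (exact permutation p = 0.307) and HDAC11 at most 9 and 4 (exact permutation p = 0.771). The smallest p that 6 against 5 libraries allow is 0.00433. PRMT8, a membrane-bound arginine methyltransferase known from the nervous system, had at most 2 reads in any library and was not tested.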

How the data were processed

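The deposited table holds raw counts per gene that the authors made with fastp 0.20.0, STAR 2.7.10b and featureCounts, on ARS-UCD 2.0. The settings for strand and for reads that map more than once are not given in the sources used here, and overlapping or near-identical genes may share reads. Libraries came from SMART-Seq cDNA after PCR without molecular identifiers.

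Counts were filtered by filterByExpr and tested with edgeR 4.0.16 (quasi-likelihood, TMM) for male against female. The authors' covariate was the collection week. The labels do not give it, so the library number (1 to 3) was used as a block, and whether it marks the week is not known. P-values were adjusted by the Benjamini-Hochberg method over all 12802 genes tested. DESeq2 1.42.0 was an alternative. The edgeR and DESeq2 steps were tested on simulated data. Positions come from RefSeq (ARS-UCD2.0), which matched 73 of 74 symbols, all but KDM4D. Without exon lengths no levels were compared between genes per length. Per-library log2 values used a pseudocount of 0.5 CPM. Replicates are separate embryo pools.

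Named genes were those called or X-linked, the 3 with the highest mean CPM and the 1 with the largest change in each class, those at an unadjusted p under 0.05 and those below the filter. Others were named after their values were seen. The genes and lists were chosen with earlier results of these data known. The Iso-seq sample was not used here.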

Additional observations from a re-analysis of the deposited data

Results flagged for a closer look

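Among the male values that were checked, 3 stood farther from their group than Dixon's test allows at the 95% level. All 3 were the highest value, in male replicate 5. They are not a full list of such gaps. PRMT6, not among the 3, had 33.3 CPM there and 3.35 to 8.02 CPM in the other males. PRMT7 had 106 CPM there and 56.7 to 67.6 CPM in the other males. SIRT5 had 46.6 CPM there and 18.4 to 22.3 CPM in the others. The summed arginine methyltransferases had 372 CPM there and 233 to 265 CPM in the others. Chance flags about 1 in 20 groups, the number of groups checked is not given here, and PRMT7 is part of the sum.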

How the results depend on the processing

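KDM6A was lower in males in every alternative run. It was the only enzyme gene called, and its call was lost without the replicate block and at an FDR under 0.05, each leaving 0 enzyme genes female-biased. With every gene of at least 1 count there were 2, KDM6A and KDM5C. The fits without 1 library gave 0 to 2 female-biased and 0 to 1 male-biased enzyme genes, the latter PRMT7 without female replicate 1 and KAT8 without female replicate 3. Deviations from the sex means correlated between -0.12 and 0.37 for the 5 pairs with the same 2 numbers in the library name. They correlated between -0.32 and 0.27 for the 20 pairs with different library numbers. Of the 5 same-number pairs 3 were over 0.25 (0.258, 0.316 and 0.366). Since not every pair exceeded 0.1, the number was not taken to pair the samples, and whether it marks a shared week is not known. Without the block 326 of 12802 genes were called, with it 245.

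Fold changes near 0 took the opposite sign in KDM1A (-0.056 to 0.099 over the fits without 1 library, below 0 without female replicate 3 or male replicate 1, 3 or 5), KMT5B (-0.035 without the replicate block, and -0.095 to 0.15 over the fits without 1 library, below 0 without female replicate 6 or male replicate 5) and SIRT1 (-0.31 to 0.092, above 0 without female replicate 5 or male replicate 5). In the other lists DESeq2 called 1 female-biased JmjC gene (PHF8), 1 female-biased COMPASS subunit (HCFC1), 1 male-biased acetyltransferase (NAA60) and 1 male-biased acetyltransferase complex subunit (ING4), and the fit without the block 1 male-biased acetyltransferase complex subunit (ING4). Without 1 library, female-biased calls were 0 to 1 among other JmjC proteins, 0 to 1 among other acetyltransferases and 0 to 2 among acetyltransferase complex subunits. The causes were not tested. Over the fits without 1 library the median of every class kept its sign. The male minus female difference in summed CPM took both signs in the sirtuins (-5.28 to 22.2 CPM). It kept its sign in the other classes and ran from 32.1 to 66.8 CPM in the arginine methyltransferases. The comparison of levels per length was not run, since no exon lengths were at hand.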
